A study of Mus musculus with 12 samples.

Results

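The regions described here are 1512 H3K4me3 peaks that lie at the end of a protein-coding gene and carry neither of the other 2 histone marks profiled in the same organoids. They were taken from the peaks deposited for the peak caller SEACR on chromosomes 1 to 19, by 4 conditions: a length under 6000 bp, a RefSeq protein-coding gene start or 3′ end within 1 kb, no overlap with a SEACR peak of H3K27ac, and no overlap with one of H3K27me3. They are called unmarked peaks below. They were 1512 of 58548 H3K4me3 SEACR peaks, of 14042 at a gene end on these chromosomes and of 11415 such peaks under 6000 bp. Of the other short gene-end peaks, 6042 overlapped H3K27ac and no H3K27me3 (acetylated peaks) and 3861 overlapped H3K27me3 (Polycomb-marked peaks). Unmarked means that no peak was called there: every mark was scored only at its own peaks, so levels of H3K27ac and H3K27me3 inside these regions were not analysed here.

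The libraries came from CUT&RUN, in which an antibody guides a nuclease to chromatin carrying a mark and the released fragments are sequenced. Mouse intestinal organoids, 3-dimensional cultures of epithelium started from isolated crypts, were kept in Matrigel with EGF, Noggin, R-spondin and the GSK3 inhibitor CHIR-99021, and received arachidonic acid (AA) at 25 µM or vehicle for 6 days. Each mark had 2 AA libraries and 2 vehicle libraries, 12 in all, and the 4 H3K4me3 libraries carry the comparison below. The series text speaks of Ptger knockout organoids, but the sample labels give no genotype, and libraries deposited as control were taken as vehicle. Nothing in the labels ties the 2 libraries of a group to different cultures or animals; p-values therefore reach no further than the spread between libraries, which may be technical. Such cultures are grown as epithelium without the stroma and immune cells of the gut. All 12 of 12 epithelial marker genes had a gene-end H3K4me3 peak, with summed scores of 12.8 and 11.1 in AA and 10.7 and 10.1 in vehicle. Of the fibroblast markers 3 of 11 had one (1.08 and 0.741 in AA, 1.07 and 1.17 in vehicle). Of the blood cell markers 1 of 10 had one (0.0467 and 0.136 in AA, 0.0769 and 0.171 in vehicle). Of the endothelial and glial markers 2 of 9 had one (0.328 and 0.322 in AA, 0.329 and 0.259 in vehicle). The sums hide single markers. The fibroblast gene Col1a1 scored 0.606 and 0.456 in AA and 0.485 and 0.633 in vehicle. The epithelial Krt18 was near it, at 0.693 and 0.598 in AA and 0.534 and 0.5 in vehicle. Whether other cells were present was not tested.

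Trimethylation of lysine 4 on histone H3 is placed at gene starts by SET1 and MLL complexes, which bind unmethylated CpG-rich DNA through their CXXC-domain subunits, and it is recognised by the general transcription factor TFIID. At active genes it usually stands beside H3K27 acetylation, written by p300 and CBP, and at silent developmental genes it can share a promoter with H3K27me3 from Polycomb repressive complex 2. AA is an omega-6 fatty acid, cut from membrane phospholipids and converted into prostaglandins that act on receptors coupled to cyclic AMP and other signals.

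The sequences of 9 promoters inside unmarked peaks are given first because the peaks differ in exactly this feature, the density of CpG. The first 4 belong to genes whose peak was higher in AA, the next 3 to genes whose peak was lower, and the last 2 to a repeated gene stretch on chromosome 4 in which reads cannot be placed with certainty. Each runs 5′ to 3′ on the strand of the gene, from 250 bases before to 50 after the start (RefSeq, GRCm38.p6), and each CpG is in capitals.
Prkaca, chr8:83972728-83973027, plus strand: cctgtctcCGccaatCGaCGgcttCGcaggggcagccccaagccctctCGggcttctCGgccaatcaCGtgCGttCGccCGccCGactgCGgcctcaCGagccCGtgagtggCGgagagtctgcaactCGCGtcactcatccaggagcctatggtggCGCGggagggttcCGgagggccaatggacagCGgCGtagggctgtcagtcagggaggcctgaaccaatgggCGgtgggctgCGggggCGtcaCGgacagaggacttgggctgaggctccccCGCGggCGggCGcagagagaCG
Lats2, chr14:57746074-57746373, minus strand: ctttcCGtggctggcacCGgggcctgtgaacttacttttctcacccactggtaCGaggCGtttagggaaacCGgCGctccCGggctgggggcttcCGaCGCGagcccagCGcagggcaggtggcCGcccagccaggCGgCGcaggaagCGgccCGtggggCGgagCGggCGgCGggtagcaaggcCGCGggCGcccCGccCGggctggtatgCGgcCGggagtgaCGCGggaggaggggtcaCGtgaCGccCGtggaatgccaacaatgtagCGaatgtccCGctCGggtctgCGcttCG
Ttll7, chr3:146852117-146852416, plus strand: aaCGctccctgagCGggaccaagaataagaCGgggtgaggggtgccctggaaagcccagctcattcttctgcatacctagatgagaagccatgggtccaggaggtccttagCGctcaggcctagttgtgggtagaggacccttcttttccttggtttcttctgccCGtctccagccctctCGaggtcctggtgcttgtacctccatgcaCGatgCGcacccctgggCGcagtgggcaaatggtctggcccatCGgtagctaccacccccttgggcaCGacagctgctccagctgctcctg
Nrg4, chr9:55283576-55283875, minus strand: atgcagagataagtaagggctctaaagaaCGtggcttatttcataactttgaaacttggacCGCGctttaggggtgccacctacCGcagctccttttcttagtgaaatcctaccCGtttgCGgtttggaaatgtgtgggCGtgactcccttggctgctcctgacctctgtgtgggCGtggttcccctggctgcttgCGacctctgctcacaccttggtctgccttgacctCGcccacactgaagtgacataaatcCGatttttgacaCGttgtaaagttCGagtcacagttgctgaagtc
Pla2g7, chr17:43568201-43568500, plus strand: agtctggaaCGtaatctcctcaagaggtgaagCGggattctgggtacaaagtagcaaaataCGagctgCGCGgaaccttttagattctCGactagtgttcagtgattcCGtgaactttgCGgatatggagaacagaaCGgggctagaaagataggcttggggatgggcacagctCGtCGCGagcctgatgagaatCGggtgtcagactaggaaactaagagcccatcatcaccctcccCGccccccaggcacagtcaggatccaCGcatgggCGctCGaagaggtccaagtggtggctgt
Upk3b, chr5:136038246-136038545, plus strand: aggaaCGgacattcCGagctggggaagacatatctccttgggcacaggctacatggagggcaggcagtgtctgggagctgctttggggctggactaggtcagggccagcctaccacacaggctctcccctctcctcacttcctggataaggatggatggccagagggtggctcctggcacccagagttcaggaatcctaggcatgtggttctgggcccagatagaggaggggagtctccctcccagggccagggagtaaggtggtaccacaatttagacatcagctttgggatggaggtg
Ifi44l, chr3:151762842-151763141, minus strand: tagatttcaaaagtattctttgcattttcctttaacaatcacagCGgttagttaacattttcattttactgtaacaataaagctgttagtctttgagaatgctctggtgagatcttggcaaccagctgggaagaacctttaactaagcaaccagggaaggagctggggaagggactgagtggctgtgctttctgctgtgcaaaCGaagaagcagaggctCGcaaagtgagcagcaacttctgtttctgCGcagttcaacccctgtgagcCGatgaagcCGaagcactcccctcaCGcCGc
Ifnz, chr4:88781881-88782180, plus strand: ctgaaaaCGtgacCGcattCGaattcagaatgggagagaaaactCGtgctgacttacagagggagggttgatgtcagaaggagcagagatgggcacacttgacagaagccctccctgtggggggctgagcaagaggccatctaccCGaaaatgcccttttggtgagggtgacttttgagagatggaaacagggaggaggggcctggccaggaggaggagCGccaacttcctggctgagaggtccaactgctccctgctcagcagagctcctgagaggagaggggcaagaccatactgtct
Gm13283, chr4:88760524-88760823, plus strand: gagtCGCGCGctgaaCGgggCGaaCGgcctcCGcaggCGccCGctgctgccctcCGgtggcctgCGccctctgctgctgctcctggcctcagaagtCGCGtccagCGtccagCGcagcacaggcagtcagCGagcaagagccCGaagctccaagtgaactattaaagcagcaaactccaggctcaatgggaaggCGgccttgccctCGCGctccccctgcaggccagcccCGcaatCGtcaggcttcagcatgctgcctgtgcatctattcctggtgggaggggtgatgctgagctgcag
Lats2 held 37 CpGs in 300 bases and Prkaca 31, whereas Upk3b held 2 and Ifnz 6. The ratio of observed to expected CpG, which allows for the amount of C and G, was 0.98 at Lats2, 0.86 at Prkaca, 0.79 at Pla2g7, 0.68 at Gm13283, 0.67 at Nrg4, 0.49 at Ifi44l, 0.41 at Ttll7, 0.27 at Ifnz and 0.08 at Upk3b. Among the printed promoters, CpG-rich and CpG-poor ones stood on both sides of the comparison: Ttll7 was higher and Pla2g7 lower in AA. These are single genes, and the median changes over more peaks are given below.

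A total of 552 promoter windows overlapped an unmarked peak, and their median held 12 CpGs, against 20 in 5133 windows in acetylated peaks, 21 in 2830 windows in Polycomb-marked peaks and 14 over 20085 windows of chromosomes 1 to 17 and 19. A ratio of 0.6 or more was found in 42.9% of the windows in unmarked peaks, in 74.1% of those in acetylated peaks and in 70.6% of those in Polycomb-marked peaks, while the share over all windows was 48.9%. The windows in unmarked peaks fell into unlike sets by a second peak caller. Where MACS2 had also called an H3K4me3 peak, 56.9% of 357 windows reached 0.6; where it had not, 17.4% of 195 did. Among 492 unmarked peaks that held the promoter of their gene, the ratio and the mean score had a Spearman correlation of 0.55, a description over peaks that share the 4 libraries. The 214 with a ratio of 0.6 or more had a median score of 0.41, and 86.0% of them had a MACS2 peak. The 278 with a lower ratio had a median score of 0.154, and 47.5% had one. The median log2 change, AA minus vehicle, was 0.11 in the 214 and -0.2 in the 278. In the test described below, 6 of the 214 were higher and 2 lower, and 5 of the 278 were higher and 4 lower. The sets differ in score too, and whether the change goes with CpG or with level was not tested.

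**Figure D1:**
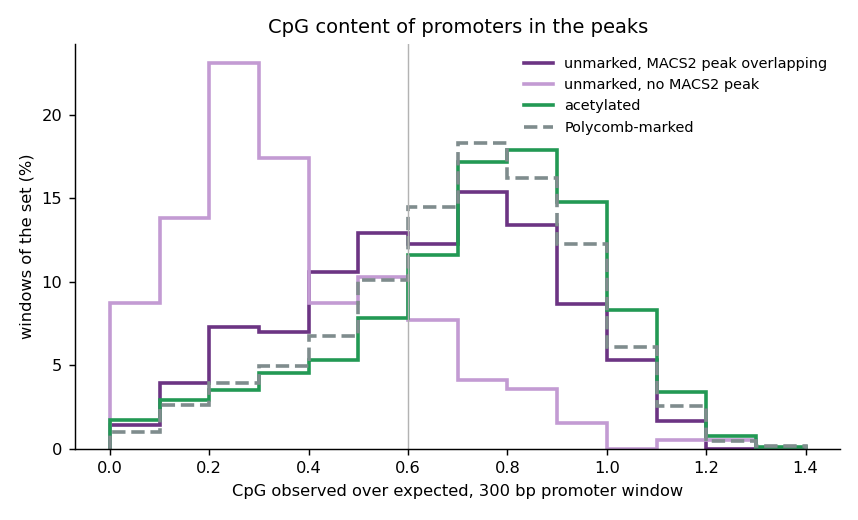
Observed over expected CpG in 300-base promoter windows (x axis) against the percentage of windows of each set (y axis), for unmarked peaks with and without a MACS2 peak and for acetylated and Polycomb-marked peaks; the vertical line stands at 0.6. Windows in unmarked peaks without a MACS2 peak lie mostly below the line, where 17.4% reach 0.6, and 56.9% of those with one reach it.

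Short promoter motifs were counted in the same windows on both strands. The GC box GGGCGG, bound by SP1-type factors, occurred in 50.9% of windows in unmarked peaks, 63.4% in acetylated, 68.7% in Polycomb-marked and 47.0% of all windows. The ETS core CCGGAA occurred in 17.0%, against 33.9% in acetylated and 18.3% in Polycomb-marked peaks, and in 3835 of the 20085 windows overall. The CCAAT box stood in 35.3%, against 39.4%, 36.7% and 38.1% in the same order, and TATAAA in 9.78%, against 6.68%, 6.54% and 12.7%. None of these motifs contains another, and the GC box and the ETS core each contain a CpG. Of the promoters printed above, Prkaca held the GC box, the CCAAT box and the ETS core, Lats2 and Pla2g7 held the GC box, and the other 6 held none of the 4 motifs.

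Unmarked peaks were short and weak. Their length was 1195 bp at the median (383 to 5862 bp), against 3727 bp for acetylated and 2646 bp for Polycomb-marked peaks. The score is the deposited signal, a mean scaled coverage per base, and its mean over 4 libraries had a median of 0.124 in unmarked peaks, 0.732 in acetylated peaks, 0.303 in Polycomb-marked peaks and 0.151 over all H3K4me3 peaks. By library, the median unmarked peak scored 0.114 and 0.134 in AA and 0.145 and 0.146 in vehicle. The median acetylated peak scored 0.85 and 0.716 in AA and 0.685 and 0.663 in vehicle, so at this level the AA libraries lay above both vehicle libraries and in the unmarked peaks below them. The depth behind these values was small and uneven: the median unmarked peak rested on a raw coverage of 1.04 and 1.32 fragments per base in AA and 2.83 and 1.92 in vehicle. In 915 of the 1512 peaks the mean raw coverage was under 2 fragments per base, and 40 and 25 peaks were at 0 in the AA libraries against 1 and 11 in the vehicle libraries.

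**Figure D2:**
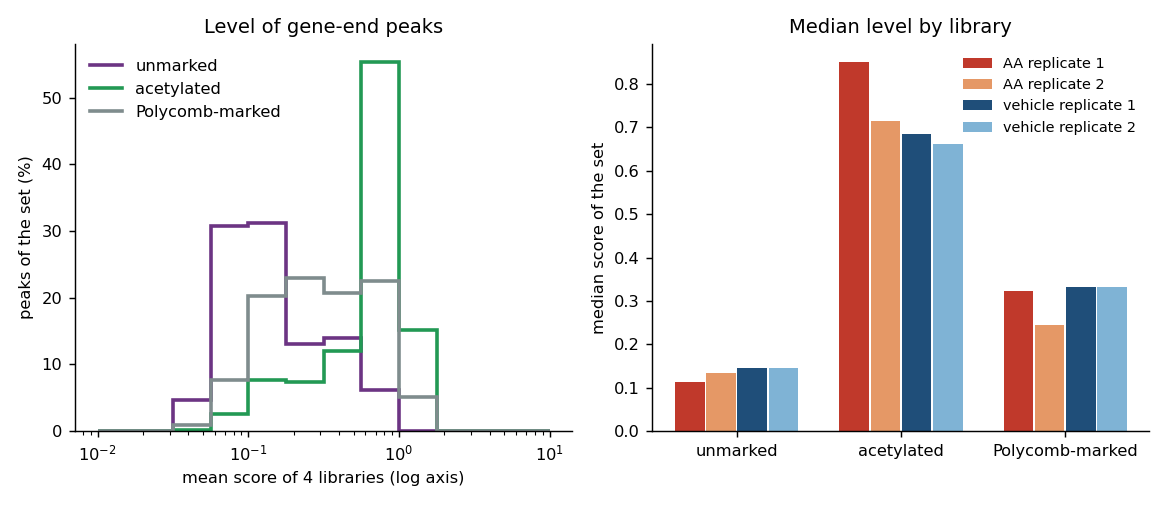
Left, the percentage of peaks of each set (y axis) by mean H3K4me3 score of 4 libraries (x axis, log scale); right, the median score of each set in every library, with the AA bars left of the vehicle bars. Unmarked peaks lie mostly between 0.03 and 0.3, with library medians of 0.114 to 0.146, while acetylated medians lie between 0.663 and 0.85.

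MACS2 peaks overlapped 508 of the unmarked peaks (33.6%), 89.8% of the acetylated and 75.3% of the Polycomb-marked ones. The nearest gene end was a gene start for 662 unmarked peaks, a 3′ end for 543, and lay in a gene without a strand in the promoter table for 307. Start peaks had a median score of 0.178 and a MACS2 peak in 51.2%; 3′ end peaks had a median score of 0.0962 and a MACS2 peak in 10.7%. A gene end lay inside 867 peaks, and 1323 peaks had a single gene within 1 kb, 184 had 2 and 5 had 3. Another H3K4me3 peak stood within 1 kb of 373 unmarked peaks (24.7%): 134 of these neighbours were acetylated, 85 were away from gene ends, 65 were unmarked, 51 Polycomb-marked and 38 at least 6000 bp long.

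The other marks were often near. A H3K27ac peak lay within 10 kb of 957 unmarked peaks (63.3%), a H3K27me3 peak within 10 kb of 826 (54.6%), and neither within 10 kb of 228 (15.1%). Within 1 kb, 409 had a peak of one or the other mark. The 1631 H3K27ac peaks within 10 kb of an unmarked peak had a median log2 difference of 0.13 between AA and vehicle, against 0.11 over all 62547 H3K27ac peaks. For the 1557 H3K27me3 peaks nearby it was 0.22, against 0.12 over all 105301. By chromosome, unmarked peaks made up from 8.73% of short gene-end peaks on chromosome 13 to 17.2% on chromosome 10.

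The strongest unmarked peaks did not pass the test between AA and vehicle, with 1 exception. The peak at the start of Scap, the escort protein that carries SREBP to the Golgi for sterol-dependent cleavage, scored 1.1 and 0.949 in AA and 0.761 and 0.749 in vehicle. Tiam2, a Rac guanine nucleotide exchange factor, scored 1.03 and 0.95 in AA and 0.782 and 0.633 in vehicle. Both genes had AA libraries above vehicle libraries. The log2 change was 0.42 ± 0.16 at Scap (SE, limma adjusted p = 0.116) and 0.47 ± 0.16 at Tiam2 (SE, limma adjusted p = 0.081). At Ascl4, a basic helix-loop-helix factor, the scores were 1.01 and 0.813 in AA and 0.804 and 0.758 in vehicle. At Grasp, a scaffold protein of receptor trafficking, they were 1.07 and 0.768 in AA and 0.745 and 0.73 in vehicle. In these genes too the AA libraries lay above the vehicle libraries, by a narrow gap. 2310022B05Rik scored 0.906 and 0.68 in AA and 0.801 and 0.927 in vehicle, and Gm32856 scored 1.05 and 0.828 in AA and 0.848 and 0.769 in vehicle; the groups overlapped in both. The exception, Relt, a receptor of the TNF receptor superfamily, scored 1.13 and 0.815 in AA and 0.785 and 0.507 in vehicle. Its change was 0.58 ± 0.17 (SE, limma adjusted p = 0.0292). The limma adjusted p was 0.298 under quantile normalization and 0.057 with the strongest 50% of peaks only. Centred on the median of all peaks it was 0.000246 (limma).

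The comparison of AA with vehicle was tested with limma over all 58548 H3K4me3 peaks. Of the 1512 unmarked peaks 28 passed (1.85%), against 2.92% of all H3K4me3 peaks and 5.77% of all gene-end peaks. Higher in AA were 17 (1.12%, against 1.54% of all peaks and 4.47% of gene-end peaks) and lower 11 (0.728%, against 1.38% and 1.3%). The shares of unmarked peaks were thus under these backgrounds, without a test of the difference and without matching for level. In the strongest of 10 equal bins by mean log2 score, 10.3% of all peaks were higher, and only 17 unmarked peaks lay there. In the weakest bin, which held 169 unmarked peaks, 0% of all peaks were called. Whether the shares differ at equal level was not tested. Among acetylated peaks 6.8% passed, 361 higher and 50 lower, and among Polycomb-marked peaks 4.87%, 89 higher and 99 lower. At an unadjusted p under 0.05 there were 171 unmarked peaks. Both AA libraries lay above both vehicle libraries in 245 (16.2%, against 18.3% of all peaks and 42.7% of gene-end peaks) and below them in 380 (25.1%, against 30.5% and 17.4%). In all 28 calls the groups did not overlap.

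The count rests on few libraries, on the scaling and on limma's moderation. With limma's mean-variance trend and robust moderation left out, none of the 28 passed (adjusted p = 0.459 to 0.57), with 157 unmarked peaks at an unadjusted p under 0.05. With both vehicle libraries kept, 23 of the 28 calls passed without AA replicate 1 and 20 without AA replicate 2. Without vehicle replicate 1 none of the 28 passed, and without vehicle replicate 2 only Msln did; in these fits a lone library is assumed to vary like the other group. Centred on the median of all peaks, which lay 0.21 lower in AA, 86 unmarked peaks were higher and 9 lower, and centred on the strongest 25% of peaks, which lay 0.16 higher in AA, 30 were higher and 54 lower. The 28 called peaks kept their direction in every one of these fits, which was fixed in advance. Their groups did not overlap, the moderation does not alter the change, and the smallest called change, 0.58, exceeded both centring shifts.

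**Figure D3:**
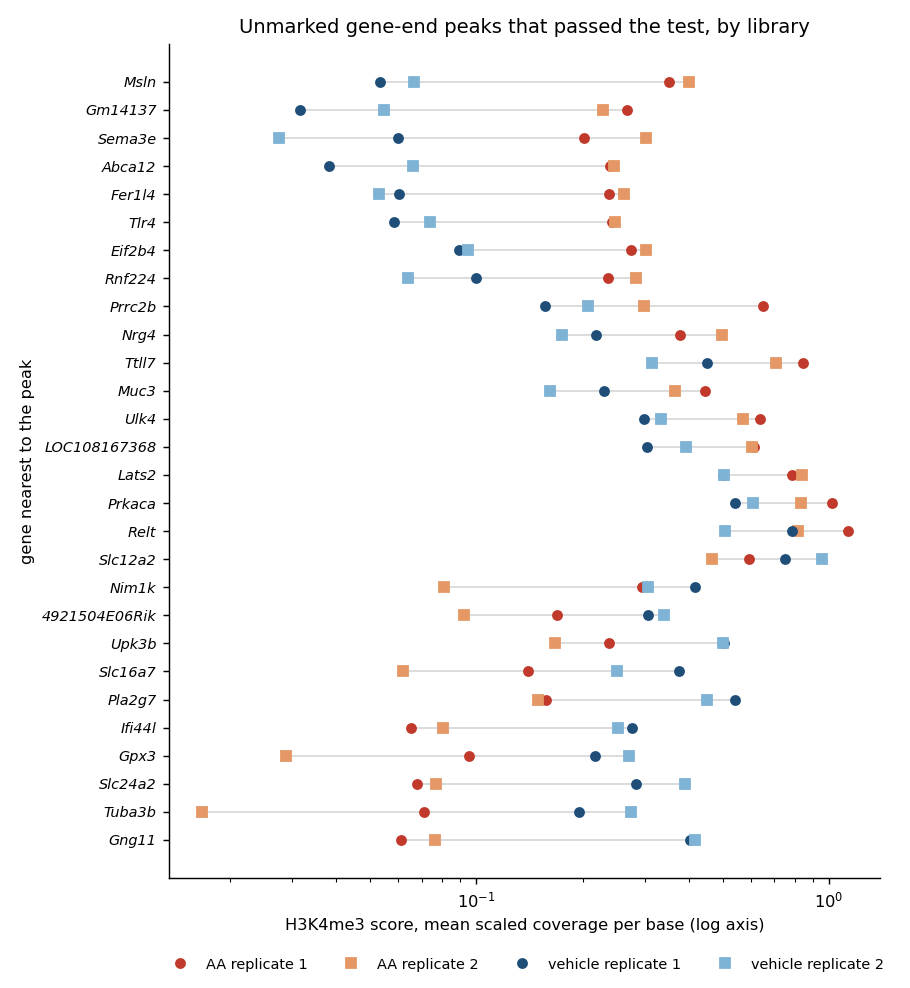
H3K4me3 score (x axis, log scale) of the 28 unmarked peaks that passed the test, 1 line per gene, with a point for each of 2 AA and 2 vehicle libraries. The upper 17 genes have both AA points to the right of both vehicle points and the lower 11 have them to the left.

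The called peaks are given by what their genes encode, an order chosen after the values were seen that carries no test. Among signalling proteins, Lats2, a kinase of the Hippo pathway that phosphorylates YAP, had a CpG-rich start whose peak (chr14:57743952-57748239) scored 0.788 and 0.839 in AA, against 0.501 and 0.504 in vehicle. Its change of 0.67 ± 0.19 (SE) had a limma adjusted p = 0.0249. Prkaca, the alpha catalytic subunit of the cyclic AMP-dependent protein kinase (chr8:83971602-83974691), scored 1.02 and 0.832 in AA, against 0.541 and 0.61 in vehicle, a change of 0.66 ± 0.18 (SE, limma adjusted p = 0.0146). These 2 peaks were 4288 and 3090 bp long, each had a MACS2 peak, and the groups did not overlap. Raw coverage at Lats2 was 7.23 and 8.26 fragments per base in AA, against 9.74 and 6.6 in vehicle, and at Prkaca 9.38 and 8.2 in AA, against 10.5 and 7.99 in vehicle. Raw coverage thus overlapped at both genes, and the groups stood apart only in the deposited scaled score. The same held at Relt, with 10.4 and 8.02 fragments per base in AA, against 15.3 and 6.64 in vehicle. It also held at Ttll7, Nrg4, Muc3, Ulk4, Prrc2b and LOC108167368. At the remaining rises the raw coverage of the groups did not overlap.

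Nrg4, which encodes neuregulin 4, a ligand of the receptor ErbB4, scored 0.379 and 0.498 in AA, against 0.218 and 0.175 in vehicle (chr9:55283428-55284422). The change was 1.06 ± 0.29 (SE, limma adjusted p = 0.0214). Tlr4, the receptor for bacterial lipopolysaccharide, scored 0.243 and 0.248 in AA, against 0.0585 and 0.074 in vehicle, with an adjusted p = 0.0459 (limma). Sema3e, a secreted semaphorin that binds plexin D1, scored 0.202 and 0.302 in AA, against 0.06 and 0.0276 in vehicle (limma adjusted p = 0.0238). Raw coverage at Tlr4 was 2.23 and 2.45 fragments per base in AA, against 1.14 and 0.97 in vehicle. At Sema3e it was 1.85 and 2.97 in AA, against 1.17 and 0.361 in vehicle. In 6 of the 17 rises both vehicle libraries had 1.2 or fewer fragments per base. These were Msln, Sema3e, Gm14137, Abca12, Fer1l4 and Tlr4. The nearest H3K27ac peak to Tlr4 was 1205197 bp away and to Sema3e 624932 bp. Ulk4, a member of the ULK kinase family, scored 0.637 and 0.569 in AA, against 0.298 and 0.333 in vehicle (change 0.88 ± 0.24, SE, limma adjusted p = 0.0155).

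Of signalling genes with a lower peak, Gng11, a gamma subunit of heterotrimeric G proteins, showed the largest fall of the unmarked peaks that passed. Its 4189 bp peak (chr6:4002395-4006583) scored 0.0611 and 0.0761 in AA, against 0.403 and 0.417 in vehicle. The log2 change was -2.22 ± 0.39 (SE, limma adjusted p = 1.2e-05), computed with a pseudocount of 0.0253, which draws the change of low scores toward 0. Its raw coverage was 0.561 and 0.749 fragments per base in AA, against 7.85 and 5.46 in vehicle. Nim1k, a kinase related to AMPK, scored 0.295 and 0.0807 in AA, against 0.416 and 0.306 in vehicle. Here AA replicate 1 lay just under the lower vehicle library, and without AA replicate 2 the adjusted p was 0.57 (limma), against 0.0468 with it.

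Genes of the cell surface and of transport lay on both sides. Msln encodes mesothelin, a surface glycoprotein known from mesothelium, and was listed here with genes of fetal-like intestinal epithelium. Its peak (chr17:25752069-25754901) scored 0.352 and 0.4 in AA, against 0.0533 and 0.0663 in vehicle, the largest rise of the unmarked peaks that passed. The change was 2.24 ± 0.42 (SE, limma adjusted p = 5.7e-05). It had no MACS2 peak, and its raw coverage was 3.23 and 3.94 fragments per base in AA, against 1.04 and 0.869 in vehicle. Muc3, a membrane mucin of the intestinal brush border, scored 0.444 and 0.366 in AA, against 0.23 and 0.162 in vehicle (limma adjusted p = 0.0466). Another unmarked peak lay 27 bp from it and had a change of -0.05. Abca12, a lipid transporter best known from skin, scored 0.24 and 0.245 in AA, against 0.0381 and 0.0662 in vehicle, with a peak 751 bp from the gene start (limma adjusted p = 0.0336).

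On the lower side, Upk3b, a uroplakin of urothelium and mesothelium, scored 0.238 and 0.167 in AA, against 0.503 and 0.5 in vehicle (chr5:136038178-136040842). The change was -1.23 ± 0.28 (SE, limma adjusted p = 0.00236), at a promoter with 2 CpGs. Slc24a2, a potassium-dependent sodium/calcium exchanger, scored 0.0679 and 0.0766 in AA, against 0.284 and 0.391 in vehicle (change -1.88 ± 0.42, SE, limma adjusted p = 0.00143). Slc16a7, the monocarboxylate transporter MCT2, scored 0.14 and 0.0621 in AA, against 0.376 and 0.251 in vehicle (limma adjusted p = 0.0155). In all 3 the AA libraries lay well under the vehicle libraries. Slc12a2, the sodium-potassium-chloride cotransporter NKCC1 and a gene of the crypt stem cell list, scored 0.593 and 0.465 in AA, against 0.751 and 0.954 in vehicle (change -0.66 ± 0.18, SE, limma adjusted p = 0.0215). That peak lay 122 bp from an H3K4me3 peak of at least 6000 bp, whose change was -0.35, and after centring on the median of all peaks its adjusted p was 0.108 (limma).

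Among enzymes, Ttll7, a tubulin polyglutamylase, scored 0.842 and 0.71 in AA, against 0.452 and 0.315 in vehicle (chr3:146851334-146853147, change 0.99 ± 0.21, SE, limma adjusted p = 0.000622). Pla2g7, the secreted phospholipase that inactivates platelet-activating factor, fell to 0.158 and 0.15 in AA, against 0.543 and 0.452 in vehicle (chr17:43567961-43569223, change -1.54 ± 0.3, SE, limma adjusted p = 0.000145). A H3K27ac peak lay 394 bp from the Pla2g7 peak. Gpx3, the secreted glutathione peroxidase, scored 0.0951 and 0.0289 in AA, against 0.217 and 0.271 in vehicle (limma adjusted p = 0.0381). Ifi44l, an interferon-induced gene, scored 0.0651 and 0.0805 in AA, against 0.276 and 0.252 in vehicle (limma adjusted p = 0.0313). The Gpx3 and Ifi44l peaks had under 1 fragment per base in both AA libraries, as did 5 of the 11 falls in all.

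The remaining calls were at genes of other functions. Prrc2b, a 530 bp peak 269 bp from an H3K4me3 peak of at least 6000 bp, scored 0.65 and 0.299 in AA, against 0.157 and 0.207 in vehicle; without AA replicate 1 its adjusted p was 0.14 (limma), against 0.00869 with it. Eif2b4, a subunit of the exchange factor eIF2B, was the single call at a 3′ end and scored 0.274 and 0.302 in AA, against 0.0891 and 0.0944 in vehicle (limma adjusted p = 0.0277). Fer1l4, of the ferlin family, scored 0.238 and 0.263 in AA, against 0.0605 and 0.053 in vehicle (limma adjusted p = 0.0307). Rnf224, a RING finger gene whose peak also lay near the 3′ end of Cysrt1, scored 0.236 and 0.283 in AA, against 0.1 and 0.064 in vehicle (limma adjusted p = 0.0477). Tuba3b, an alpha tubulin, scored 0.0711 and 0.0166 in AA, against 0.195 and 0.274 in vehicle (limma adjusted p = 0.0394). The other 3 calls were at predicted or provisional genes: Gm14137 and LOC108167368 higher by 2.02 and 0.77, and 4921504E06Rik lower, with a change of -1.2.

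Of the 28 calls, 21 had a gene start as the nearest end, 1 a 3′ end and 6 an end of unknown strand, and 19 had a MACS2 peak. Start peaks with a MACS2 peak, 339 of them, had a median change of 0.1, and 9 were higher and 6 lower (4.42% called). The 323 start peaks without one had a median change of -0.35, with 5 higher and 1 lower (1.86% called). At 3′ ends 1 of 543 peaks was called and the median change was -0.22. For all unmarked peaks the median change was -0.13, against -0.19 over all H3K4me3 peaks, 0.21 for acetylated and -0.13 for Polycomb-marked peaks. It turned to 0.08 after centring on the median of all peaks and to 0.06 with the strongest 50% of peaks only. Its sign thus depends on the scaling and on which peaks are kept.

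The change followed the level. All H3K4me3 peaks were put into 10 bins of equal size by the mean of log2(score + 0.0253), the scale of the test. A peak with a library near 0 can thus fall into a lower bin than its mean score would give. The median change of the unmarked peaks was -0.6 in the weakest bin (169 peaks) and -0.28 in bin 5 (135 peaks). It was 0.02 in bin 8 (182 peaks) and 0.29 in the strongest (17 peaks). Over all peaks these bins had -0.7, -0.34, -0.2 and 0.28. The largest gap between both sets was in bin 3, with -0.16 in 224 unmarked peaks against -0.44 over all peaks. No unmarked peak in the weakest 3 bins was called, where at most 0.154% of all peaks were higher and 0.0512% lower. The AA libraries had the lower median raw coverage over all unmarked peaks, as given above, and the part of depth in this trend was not tested.

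**Figure D4:**
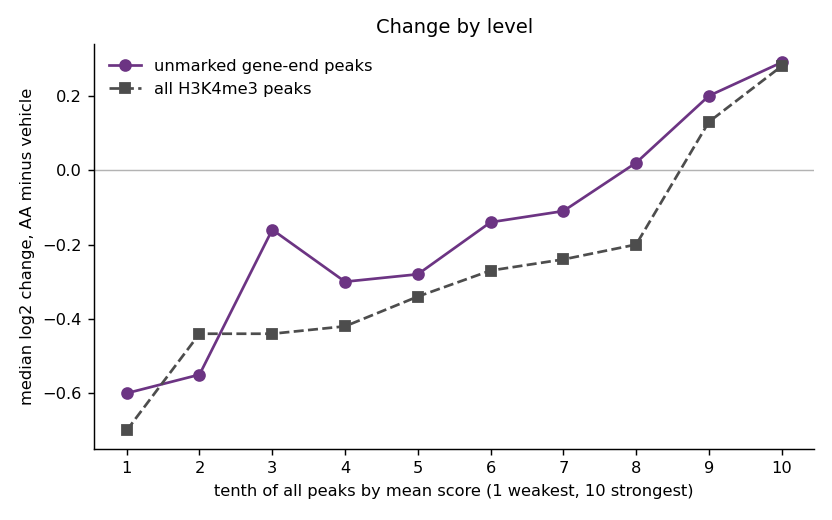
Median log2 change of H3K4me3, AA minus vehicle (y axis), for unmarked peaks (circles) and all H3K4me3 peaks (squares). The x axis, labelled mean score, holds 10 bins of all peaks by the mean of log2(score + 0.0253), weakest at the left. Both lines climb with the level, for unmarked peaks to 0.29 in bin 10 from -0.6 in bin 1.

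A stretch on chromosome 4 held a run of strong unmarked peaks around Ifnz, which encodes the type I interferon zeta, and predicted genes beside it. In 51.5 kb (chr4:88756565-88808031) there were 15 H3K4me3 gene-end peaks, 8 of them unmarked, 5 overlapping H3K27ac and 2 overlapping H3K27me3. The 8 unmarked peaks had mean scores of 0.608 to 0.864, all among the 100 highest of the unmarked peaks, and the other 7 had 0.518 to 1.14. The peak at Ifnz scored 1.04 and 0.679 in AA and 0.761 and 0.685 in vehicle, and the groups overlapped. The peak at Gm13287 scored 0.877 and 0.708 in AA and 0.557 and 0.506 in vehicle, without overlap (change 0.55 ± 0.19, SE, limma adjusted p = 0.0814). None of the 15 peaks passed, and the changes of the 8 unmarked ones ran from -0.01 to 0.55.

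The promoters of this stretch fall into groups of near copies. Compared base by base without gaps, of 14 genes with a window, Ifnz, Gm13276, Gm13277, Gm13278 and Gm13288 formed a group at least 99.67% identical. Gm13283, Gm13272, Gm13285 and Gm13287 formed another, at least 99.0% identical, and Gm13290, Gm13289 and Gm13279 a further group, at least 99.33%. The groups were unlike each other: Ifnz and Gm13283 were 22.33% identical. Gm13286 and Gm13275 belonged to no group, with at most 65.33% and 28.0% identity to any other. Members of 1 group were found with and without the other marks: Ifnz and Gm13276 lay in unmarked peaks, Gm13277 and Gm13278 in peaks that overlapped H3K27ac, and Gm13288 in one that overlapped H3K27me3. How reads that match several copies were placed is not given in the sources used here, so the scores and the marks of single copies within a group are uncertain.

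**Figure D5:**
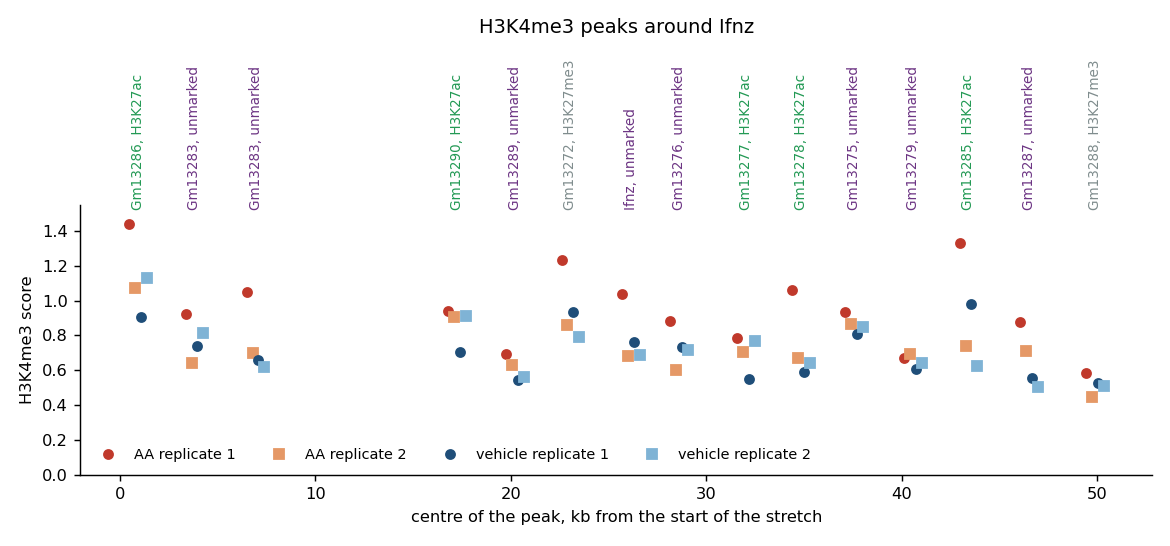
H3K4me3 score (y axis) of the 15 peaks in the stretch around Ifnz against the distance of the peak centre from the start of the stretch in kb (x axis), with 2 AA libraries left of 2 vehicle libraries at each peak; labels give the nearest gene and the overlapping mark. Unmarked peaks lie between peaks with H3K27ac or H3K27me3 at scores of the same size.

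Gene lists were counted over peaks, each given to the gene whose end lay nearest to it. Unmarked peaks were 10.8% of all 14042 gene-end peaks. Shares above it were found for germ cell and meiosis genes, with 7 of 13 peaks (53.8%), the clustered protocadherins, cell adhesion proteins of neurons, with 8 of 16 (50.0%), and olfactory, vomeronasal and taste receptors, with 16 of 45 (35.6%). Neuron and synapse genes and genes of fetal-like epithelium had 4 of 23 each (17.4%), cilium genes 24 of 171 (14.0%) and crypt stem cell genes 3 of 25. Of the 2 gene-end peaks at endothelial and glial markers 1 was unmarked. Zinc finger proteins had 43 of 423 (10.2%), prostaglandin and arachidonate genes 2 of 23 (8.7%), histones 3 of 37 (8.11%) and enterocyte genes 2 of 26 (7.69%). The lists of housekeeping genes had lower shares: 5 of 73 for the mitochondrial ribosome, 3 of 82 for the respiratory chain and ATP synthase, 1 of 29 for aminoacyl-tRNA synthetases, 2 of 78 for the cytosolic ribosome, 1 of 40 for the proteasome and 1 of 55 for DNA repair. None of 28 peaks of fatty acid oxidation and PPAR genes and none of 32 of developmental Polycomb targets was unmarked. These shares are descriptions, with no test.

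Apart from Msln and Slc12a2, described above, no unmarked peak of these lists passed the test, and their median changes lay on both sides of the -0.19 of all peaks. Zinc finger peaks had a median change of -0.19 and a median score of 0.171, with 22 of 43 at a gene start. The highest, Zfp382, a KRAB zinc finger protein, scored 1.09 and 0.694 in AA and 0.648 and 0.557 in vehicle, with AA above vehicle and an adjusted p = 0.0773 (limma). Zscan22 scored 0.731 and 0.716 in AA and 0.765 and 0.693 in vehicle, and Zfp940 scored 0.702 and 0.577 in AA and 0.598 and 0.536 in vehicle; the groups overlapped in both. Cilium peaks had a median score of 0.237 and a median change of 0.11, and 15 of 24 had a MACS2 peak. Bbs4, a subunit of the BBSome, scored 0.764 and 0.633 in AA and 0.597 and 0.555 in vehicle. Dnah8, an axonemal dynein heavy chain, scored 0.619 and 0.335 in AA and 0.631 and 0.505 in vehicle, and Cfap36 0.597 and 0.466 in AA and 0.563 and 0.441 in vehicle. The groups overlapped in Dnah8 and Cfap36.

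Germ cell genes had a median score of 0.095 and a median change of -0.01. Boll, an RNA-binding protein of the DAZ family, scored 0.29 and 0.29 in AA and 0.329 and 0.235 in vehicle; its relative Dazl scored 0.367 and 0.215 in AA and 0.267 and 0.203 in vehicle. Spo11, the enzyme that cuts DNA to start meiotic recombination, scored 0.273 and 0.16 in AA and 0.391 and 0.298 in vehicle, with AA lower and an adjusted p = 0.271 (limma). Olfactory, vomeronasal and taste receptor peaks were weak, at 0.0311 to 0.152, none had a MACS2 peak, and Olfr1033, the highest, scored 0.0717 and 0.213 in AA and 0.194 and 0.13 in vehicle. Olfr1396 scored 0.17 and 0.117 in AA and 0.219 and 0.0672 in vehicle, and Olfr750 0.181 and 0.09 in AA and 0.0721 and 0.152 in vehicle. All 3 overlapped. Among protocadherins, whose median change was -0.65, Pcdhga5 scored 0.246 and 0.197 in AA and 0.264 and 0.269 in vehicle. Pcdhga6 scored 0.16 and 0.141 in AA and 0.311 and 0.23 in vehicle, and Pcdhgb5 0.131 and 0.0848 in AA and 0.225 and 0.125 in vehicle. AA lay under vehicle in Pcdhga5 (limma adjusted p = 0.721) and in Pcdhga6 (limma adjusted p = 0.281).

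Some lists were tied to the study's question, and their genes were chosen with earlier results of these data known. Of the 4 unmarked peaks of fetal-like epithelium, whose median change was 0.03, 1 was higher, that of Msln. Anxa5, a membrane-binding annexin, scored 0.223 and 0.193 in AA and 0.18 and 0.158 in vehicle (limma adjusted p = 0.745). Il33, an alarmin cytokine, scored 0.177 and 0.126 in AA and 0.173 and 0.176 in vehicle. Clu, the secreted chaperone clusterin, scored 0.0827 and 0.000674 in AA and 0.204 and 0.031 in vehicle, with overlap and a change of -1.1 ± 1.04 (SE, limma adjusted p = 0.617). Of the 3 unmarked peaks of crypt stem cell genes, whose median change was -0.36, 1 was lower, that of Slc12a2. Axin2, a negative regulator of Wnt signalling, had a weak peak of 0.0683 and 0.0256 in AA and 0.134 and 0.0239 in vehicle. Cdca7 scored 0.0353 and 0.339 in AA and 0.0355 and 0.0857 in vehicle, with 1 high AA library. Of the 2 prostaglandin and arachidonate genes, Hpgds, a prostaglandin D synthase, scored 0.0609 and 0.11 in AA and 0.245 and 0.126 in vehicle. Ptges3, a prostaglandin E synthase and HSP90 co-chaperone, scored 0.0481 and 0.04 in AA, at its 3′ end, and 0.122 and 0.0824 in vehicle. AA lay under vehicle in Hpgds (limma adjusted p = 0.379) and in Ptges3 (limma adjusted p = 0.645). The 2 enterocyte genes were Slc2a5, the fructose transporter GLUT5, with 0.159 and 0.0905 in AA and 0.232 and 0.235 in vehicle, and Cubn, which encodes the receptor cubilin, with 0.119 and 0.0762 in AA and 0.0961 and 0.133 in vehicle.

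Weak peaks in the housekeeping lists show how wide the spread between libraries can be. At Poll, a DNA polymerase of repair, the scores were 0.0374 and 0.257 in AA and 0.00202 and 0.00762 in vehicle. Its change of 2.15 ± 1.22 (SE) had a limma adjusted p = 0.373, against 2.24 ± 0.42 at Msln, which passed. Rpl29 scored 0.0613 and 0.31 in AA and 0.0244 and 0.078 in vehicle, Psmd2 0.0127 and 0.227 in AA and 0.081 and 0.0181 in vehicle, and Mrps36 had 0.0322 and 0.212 in AA and 0.0615 and 0.0647 in vehicle. In each of these 4 genes AA replicate 2 was the highest of the 4 libraries. Over the unmarked peaks the Spearman correlation was 0.64 between the AA libraries and 0.71 between the vehicle libraries, and AA replicate 2 had 0.5 and 0.53 with the vehicle libraries, against 0.74 and 0.73 for AA replicate 1. Tek, the angiopoietin receptor of endothelium, scored 0.166 and 0.221 in AA and 0.0285 and 0.0334 in vehicle, without overlap (change 1.95 ± 0.72, SE, limma adjusted p = 0.117). The other endothelial marker with a gene-end peak, Kdr, the receptor VEGFR2, ran the other way, with 0.162 and 0.101 in AA and 0.301 and 0.226 in vehicle. Epcam, a defining epithelial gene, had an unmarked peak at its 3′ end, which scored 0.0558 and 0.135 in AA and 0.131 and 0.0575 in vehicle. Cox6b2, the testis form of a cytochrome c oxidase subunit, scored 0.298 and 0.23 in AA and 0.239 and 0.303 in vehicle, and the neuronal tubulin Tubb3 scored 0.232 and 0.147 in AA and 0.209 and 0.282 in vehicle. The groups overlapped in all 3 of these genes.

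The limits of the rule were set by length and distance. The 12 longest unmarked peaks, of 5093 to 5862 bp, had a median mean score of 0.436 and a median change of 0.28, and the 2 unmarked gene-end peaks of 6000 bp or more had 0.548 and 0.25. The 142 unmarked peaks 800 to 999 bp from a gene end had a median score of 0.101 and a median change of -0.21, and the 114 peaks just outside, at 1001 to 1200 bp, had 0.0966 and -0.14.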

How the data were processed

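H3K4me3, H3K27ac and H3K27me3 were profiled in 12 CUT&RUN libraries, 2 per mark and treatment. The authors deposited a signal value per peak and library for SEACR and MACS2 peaks on mm10, per the submitters' processing notes; no source used here gives the aligner, versions, scaling or calling settings. The product of score and length took whole-step values in each library, within 0.1 step, for at least 99.99% of values below 1000 steps, as for mean coverage per base with 1 scale factor; score over step is the raw coverage. The scores were tested as deposited with limma 3.58.1 (R 4.3.3; mean-variance trend, robust moderation) as log2(score + 0.0253), the 5th percentile of positive values, AA minus vehicle, over all 58548 SEACR H3K4me3 peaks, with Benjamini-Hochberg adjustment and a threshold of 0.05. A change is on that scale, which understates the change of weak peaks. On simulated data the share of false calls was above the nominal level. Gene ends come from RefSeq (GRCm38.p6); strands come from its promoter table, and those of chromosome 18 were not used here. The libraries were compared without pairing by replicate number.

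Named are the 10 largest rises and 10 largest falls among called peaks with groups apart, predicted and provisional genes left out. The 8 highest peaks and up to 3 genes per list were added. The other called genes were named after their values were seen. Clu, Kdr, Col1a1, Krt18 and most genes of the stretch around Ifnz were named outside this rule. The peaks and 23 gene lists were chosen with earlier results of these data known. Tables were computed in Python 3.11.15 with pandas 2.3.3 and numpy 2.4.6.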

Additional observations from a re-analysis of the deposited data

How the results depend on the processing

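The counts moved with the scaling, the moderation, the threshold and single libraries; the cause was not tested. For unmarked peaks, the main counts were 17 higher and 11 lower with a median change of -0.13, and for all H3K4me3 peaks 904 higher and 806 lower. Centred on the median of all peaks, unmarked peaks had 86 higher and a median of 0.08, and all peaks 5557 higher and 549 lower. Under quantile normalization they had 40 higher and a median of 0.08, and all peaks 1388 lower. Centred on the strongest 25% of peaks they had 30 higher, 54 lower and a median of -0.29, and all peaks 1492 higher and 3949 lower. With the strongest 50% of peaks only, which left 596 of the unmarked peaks, the median was 0.06. Without trend and robust 0 unmarked peaks passed limma (157 at an unadjusted p under 0.05), and 0 of all peaks. At a threshold of 0.01, 3 were higher and 4 lower, of 284 and 256 over all peaks. With MACS2 in place of SEACR for all 3 marks, 10264 peaks met the rule. Of these 794 were higher, 58 lower and the median was 0.23 (1907 and 397 over all peaks). They are another set of peaks, as MACS2 called the other marks at fewer sites. A MACS2 H3K27ac peak overlapped 2631 of the 6042 acetylated peaks, and a MACS2 H3K27me3 peak 419 of the 3861 Polycomb-marked ones.

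Leaving out 1 library gave 0 to 142 unmarked peaks higher, 0 to 83 lower and a median of -0.2 to -0.02, and 30 to 6834 higher and 2 to 5504 lower over all peaks. Without vehicle replicate 1 no unmarked peak passed (83 at an unadjusted p under 0.05); without vehicle replicate 2, 1 did (55). Msln passed in 3 of these 4 fits, 18 calls in 2, 5 in 1 and 4 in none. With the replicate block 25 were higher and 12 lower, and 1596 higher over all peaks. The deviations of same-numbered libraries had a correlation of -0.00228. At this low raw coverage that value cannot exclude a culture shared by libraries of the same number. The doubled and halved pseudocount, the gene end within 500 bp (15 higher, 11 lower), no MACS2 peak of the other marks (17 and 11) and no other mark within 1 kb (15 and 9) kept both counts within 1.5 times. Asking for no MACS2 peak of the other marks left 1509 of the 1512 peaks and so could hardly move the counts. The 28 calls kept their direction in every fit that held them, which groups without overlap make certain when 1 library is left out. Of 56 named peaks that did not pass, up to 10 passed under an alternative and up to 13 changed sign. Raw coverage under 2 fragments per base in 915 peaks limits what single weak peaks can show.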
